A study of Gallus gallus with 50 samples.

Results

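The genes of the chicken W chromosome are described here, chosen as all genes whose first chromosome entry in the deposited annotation columns is W. There were 124 of them among the 24356 genes counted. The 44 with 10 or more reads in at least 3 of the kept libraries are described in depth, and they held 99.9% of all reads on W genes. Of the other 80, 27 had no read in any kept library and 53 had some, with at most 37 reads in 1 library. The lowest members that passed had 10 reads in 3 libraries (ENSGALG00000037350, ENSGALG00000050905 and ENSGALG00000052405), and the highest that did not had them in 2 (ENSGALG00000030997 and ENSGALG00000047839). The files do not pair these Ensembl identifiers with gene names, so that no gene is named and no role is given to any.

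In birds the female carries a Z and a W chromosome and the male carries a pair of Z chromosomes, so that W genes are read only in cells of female embryos. The W chromosome is small, rich in repeats, and keeps a limited set of old genes, most of which have a partner on Z from the time when the pair was an ordinary pair of autosomes. Birds have no chromosome-wide balancing of Z genes as complete as X inactivation in mammals, and many Z genes are read at a higher level in males.

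The libraries came from cranial tissue of chicken embryos kept outside the egg after electroporation with a reporter, ptk-TFAP2AE1-GFP, in which an enhancer of TFAP2A drives GFP. Cells were sorted into GFP-positive cells, labelled neural crest (the migratory population that forms much of the face and the peripheral nervous system), and GFP-negative cells of the same heads. All groups carry the reporter, and GFP-negative cells are any that did not show it. About 20 heads were pooled for a sample, and the labels give neither strain nor sex of the embryos. The 12 groups are GFP-positive and GFP-negative cells at Hamburger-Hamilton (HH) stages HH6, HH8, HH10, HH12, HH14 and HH16, with 3 kept libraries in each group at HH6, HH8, HH10 and HH14, 4 at HH12 and 5 at HH16. Libraries whose titles share a name were taken to come from 1 pool of embryos, lettered here within a stage (HH6-A to HH16-E), and 19 of the 23 kept pools have both libraries. Expression of cell type markers could not be checked without gene names.

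Counted reads per kept library ran from 4869937 to 29316689 over 42 libraries, with 11128 to 14725 genes at 10 or more reads. Of these, 4 libraries stood apart in W reads. Both libraries of pools HH16-A and HH16-C lay below 10% of the median W share, a floor of 149.8 W CPM (reads on all W genes for every 1000000 counted reads). The W scale introduced below and the tests of W share leave these libraries out. Counts of genes called on the other scale are given with and without them. Because each sample is a bulk extract, fewer female cells and less W RNA per female cell cannot be told apart.

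The W genes took 323 to 2721 CPM in the 38 libraries above the floor, a span of 8.42-fold, with a median of 1571. The 4 libraries below it had 23.2 to 26.4 CPM. In pool HH16-A the GFP-positive library had 23.4 W CPM (95% Clopper-Pearson interval 21.02 to 25.90) and the GFP-negative library 23.2 (20.9 to 25.6). In pool HH16-C the values were 26.4 (23.7 to 29.4) in the GFP-positive and 23.7 (21.6 to 25.9) in the GFP-negative library. Above the floor a library had 4129 to 57418 W reads, and the widest 95% Clopper-Pearson interval reached 3.06% of its value to a side. Intervals cover counting error only, so that the span among pools is wider than counting error.

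**Figure D1:**
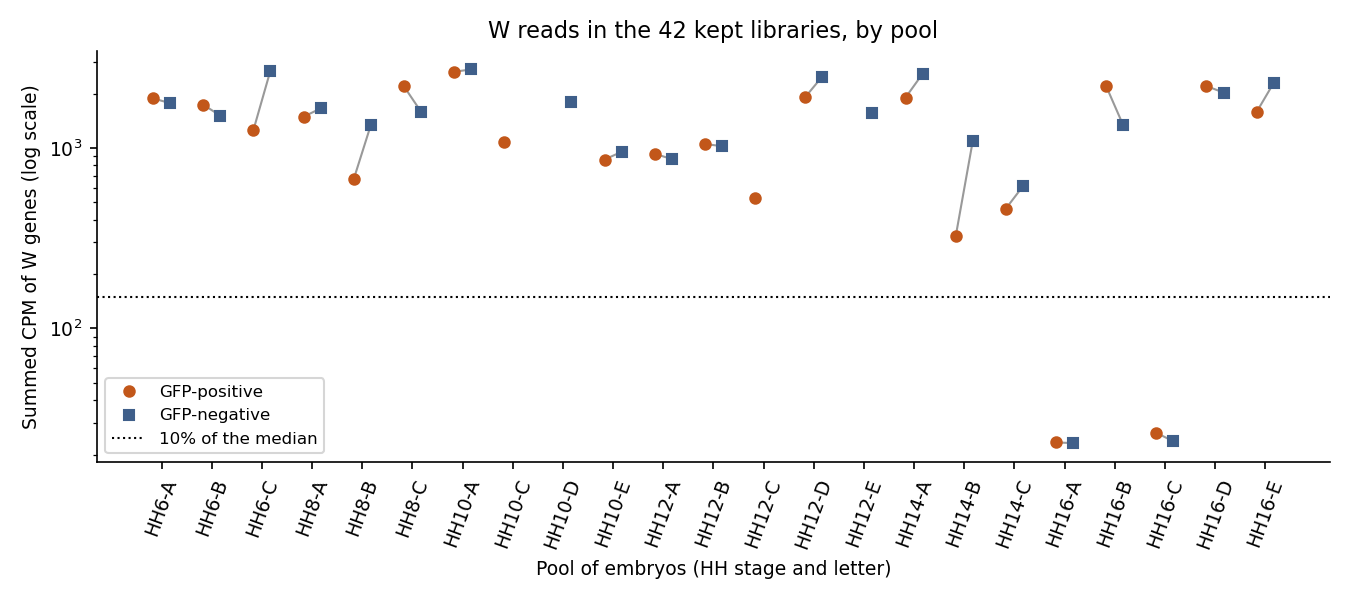
Summed W CPM (log scale) for each kept library, by pool of embryos, with the GFP-positive library as a circle left of the GFP-negative one as a square. Grey lines join the libraries of 1 pool, and the dotted line is 10% of the median; pools HH16-A and HH16-C lie below it at 23.2 to 26.4.

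The groups overlapped widely. Mean W CPM was 1624 ± 329, 1451 ± 763, 1528 ± 971, 1104 ± 582 and 895 ± 874 in GFP-positive cells from HH6 to HH14 in stage order (SD, n = 3, 3, 3, 4 and 3). It was 1987 ± 616, 1527 ± 169, 1826 ± 885, 1484 ± 730 and 1426 ± 1022 in GFP-negative cells at the same stages (the same n). At HH16 the mean over all 5 kept libraries was 1206 ± 1108 in GFP-positive and 1140 ± 1078 in GFP-negative cells. Without the 4 libraries below the floor it was 1994 ± 356 in GFP-positive and 1884 ± 495 in GFP-negative cells, with n = 3 each.

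Within a pool the GFP-positive library had the lower W share in 10 of 17 pairs above the floor and the higher one in 7. The mean log2 ratio of GFP-positive to GFP-negative was -0.25 ± 0.61 (SD, n = 17 pools), a 0.842-fold mean, and did not pass a two-sided sign-flip permutation test (p = 0.11). Sequencing sets S1 to S4 were grouped by number prefixes in the sample descriptions, and S1 merges 3 prefixes that name more than one flow cell. In sets S1 and S2 the mean was -0.37 over 9 pools and -0.24 over 4, and in sets S3 and S4, of 2 pools each, it was -0.03 and 0.07. Without pool HH16-B, where the GFP-positive library had 2198 and the GFP-negative library 1334 W CPM, p was 0.04.

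Some pairs lay close together and others far apart. Pool HH10-A had 2642 W CPM in its GFP-positive and 2721 in its GFP-negative library, and pool HH12-B had 1051 in its GFP-positive and 1023 in its GFP-negative library. Pool HH14-B had 323 in its GFP-positive and 1090 in its GFP-negative library, 3.37-fold lower. Pool HH6-C had 1254 in its GFP-positive and 2682 in its GFP-negative library, and pool HH8-B had 671 in its GFP-positive and 1335 in its GFP-negative library. In 8 of 17 pairs the values lay within 1.25-fold of each other, and in 4 they lay more than 1.5-fold apart. Part of these gaps lay in ENSGALG00000035998, the gene with the most W reads. Without it the GFP-positive and GFP-negative values were 537 and 847 in HH6-C, 333 and 461 in HH8-B, and 776 and 586 in HH16-B. In HH14-B they were 158 and 486, still far apart. In HH8-C the relative gap was wider without that gene, at 922 and 543 against 2195 and 1590 with it. The GFP-negative HH6-C library had the fewest counted reads of the kept libraries, 4869937.

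The libraries of a pool also had related W shares. Over the 17 pools log2 W share of the GFP-positive library correlated with that of the GFP-negative library with Pearson's r = 0.71 (permutation p = 0.00121, adjusted over 2 relations 0.00121) and Spearman's rho = 0.65 (permutation p = 0.00507, adjusted 0.00507). Without the 2 pools farthest from the median r was 0.61 (permutation p = 0.0116, n = 15), and for deviations from the stage means it was 0.68. The libraries of each of these pools also share a sequencing set as grouped here, although those of pool HH10-A carry different prefixes of S1. Among pools above the floor, later pools (HH12, HH14 and HH16) averaged 1208 and earlier pools (HH6, HH8 and HH10) 1532 W CPM as geometric means. The later pools HH16-A and HH16-C, with 23.2 to 26.4 W CPM, are left out here. Including them would lower the later mean, and the comparison was not run with them. The log2 difference was -0.34 over 11 later pools (SD 0.84) and 10 earlier pools (SD 0.50), and did not pass a two-sided permutation test (p = 0.276). Within set S1 it was -0.38, and within set S2, where the 2 earlier pools are both of HH10, it was 0.08.

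Genes of the Z chromosome moved the other way. Reads on the 1245 Z genes made up 3.48% to 3.64% of counted reads in the 4 libraries below the floor and 2.02% to 3.47% in the 38 above it, ranges that nearly touch. Set against reads on autosomal genes the ranges overlapped, at 3.77% to 4.04% below the floor and 2.21% to 3.79% above it. Over the 21 pools above the floor, the pool's mean Z share correlated with its mean log2 W share with r = -0.79 (permutation p = 3e-05, adjusted over 2 relations 6e-05) and rho = -0.89 (permutation p = 1e-05, the smallest that 100000 resamples can give, adjusted 2e-05). Without the 2 pools farthest from the median r was -0.80 (permutation p = 5e-05, n = 19). It was -0.80 within set S1 (11 pools) and -0.91 within set S2 (6 pools). The same libraries supply both shares.

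**Figure D2:**
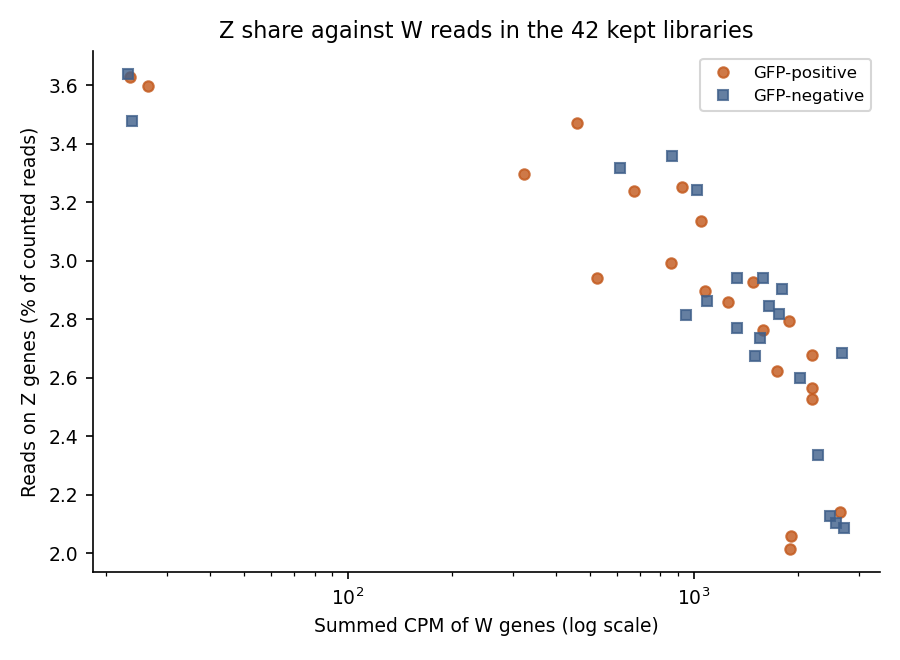
Reads on Z genes as a percentage of counted reads against summed W CPM (log scale) in the 42 kept libraries. GFP-positive libraries are circles and GFP-negative ones squares. The 4 libraries below the floor sit at the upper left at 3.48% to 3.64%. The library with the highest W CPM, 2721, lies at 2.09%, and the GFP-negative HH6-C library, with 2682, at 2.68%.

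The reads on W were spread very unevenly over its genes. ENSGALG00000035998 (W:1840623-1896773 on GRCg6a, plus strand, 2228 exonic bases) took 52.1 ± 8.49% of a library's W reads (SD, n = 38), between 35.03% and 68.4%, at a mean of 835 CPM. It also ranked first per length, at 375 RPKM (CPM per kilobase of exon). ENSGALG00000043758 (W:1391452-1417746, plus strand) took 10.3 ± 1.55%, ENSGALG00000040086 (W:4704235-4724025, minus strand) 8.78 ± 2.69%, and ENSGALG00000033705 (W:3607613-3662450, minus strand) 5.28 ± 0.799%. The 10 most abundant genes together took 90.0%.

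The remaining genes of those 10 lay between 1.28% and 3.18% of W reads. They are ENSGALG00000031327 (3.18 ± 0.969%), ENSGALG00000048286 (2.95 ± 0.426%), ENSGALG00000039023 (2.55 ± 0.985%), ENSGALG00000014184 (2.02 ± 0.699%), ENSGALG00000040263 (1.61 ± 0.503%) and ENSGALG00000040780 (1.28 ± 0.460%). ENSGALG00000040780 (W:787-48077) starts at base 787 of the assembled chromosome, and ENSGALG00000014184 (W:6650828-6715914) is the described gene farthest along it. Per exonic length the order differed: ENSGALG00000048286 ranked 2 at 141 RPKM, and ENSGALG00000039023, with 8573 exonic bases, ranked 14 at 4.27 RPKM.

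**Figure D3:**
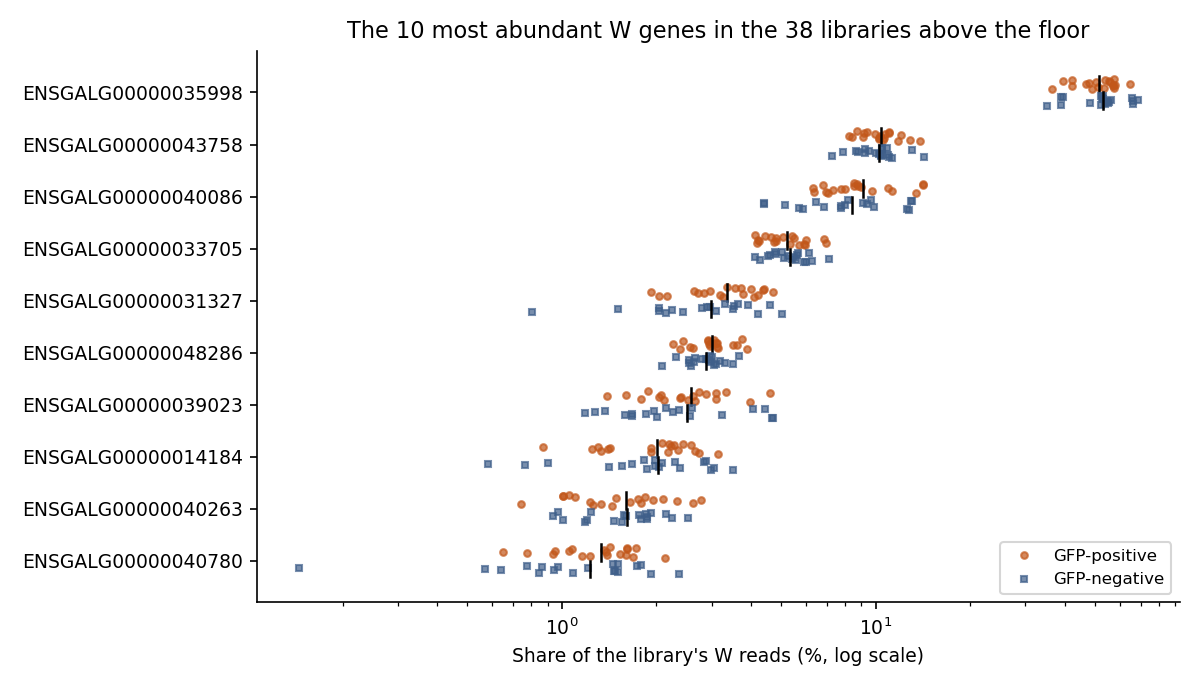
Share of the library's W reads (%, log scale) taken by each of the 10 most abundant W genes in the 38 libraries above the floor, with GFP-positive libraries as circles above GFP-negative ones as squares and black ticks at the means. ENSGALG00000035998 runs from 35.03% to 68.4%, clear of every other gene.

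Several members lie on or beside one another. ENSGALG00000048286 (W:1871809-1874957, minus strand, 327 exonic bases) lies inside ENSGALG00000035998 on the opposite strand, and its reads were 4.28% to 7.96% of those of that gene (median 5.74%). ENSGALG00000041221 (W:1839719-1840514, minus strand) ends 108 bases before the start of ENSGALG00000035998. It is named for this position, chosen after its values were seen. It has 1 exon, averaged 17.9 CPM and had 0.517% to 4.55% as many reads as its neighbour, an 8.80-fold range. Counting was reverse-stranded, so that genes on opposite strands are counted apart, except for reads that a library carries on the wrong strand. ENSGALG00000035145 overlaps ENSGALG00000040263, and ENSGALG00000037350 overlaps ENSGALG00000040086, on the same strand in both cases. Reads that overlap both genes of such a pair could not be counted to either, so that their levels are uncertain.

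Genes with 1 exon were common among those little read. They were 14 of the 44 described genes and 74 of the 80 others, with a median exonic length of 2238 bases in the described genes and 1472.5 in the others. Among the described genes, those with 1 exon had a median of 0.385 CPM and those with several exons 8.83 CPM. A mean above 10 CPM was reached by 1 of 14 with 1 exon (ENSGALG00000041221) and by 14 of 30 with several. Near-identical copies on W or Z would lose the reads they share in this counting, so that such genes are understated.

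The described genes followed the total W share to differing degrees. The correlation of log2(CPM + 1) with the log2 share of all other W reads over the 38 libraries had a median of 0.56 over the 44 genes. It exceeded 0.5 for 24 genes and 0.9 for 3, which are ENSGALG00000048286 (0.96), ENSGALG00000033705 (0.95) and ENSGALG00000043758 (0.95). For the 15 genes above 10 CPM it ran from 0.55 (ENSGALG00000035785) to 0.96. The coefficient of variation of their share of W reads ran from 14.4% (ENSGALG00000048286) to 55.9% (ENSGALG00000035785). ENSGALG00000048286 lies inside ENSGALG00000035998 on the opposite strand, and that gene holds much of the other W reads. Wrong-strand reads of ENSGALG00000035998 could thus enter the values of ENSGALG00000048286, which was not tested. The lowest correlation of all 44 genes was -0.55, for ENSGALG00000047434. These values describe libraries that differ in depth and share sequencing sets, and counting error weighs more on genes with few reads.

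ENSGALG00000047434 (W:3570685-3580610, minus strand, 4123 exonic bases in 3 exon entries) was the 1 described gene whose level did not drop in the libraries below the floor. It had 10.6 and 10.7 CPM in the GFP-positive and GFP-negative libraries of pool HH16-A, and 16.6 and 11.7 CPM in those of pool HH16-C. The libraries below the floor are all of HH16, and the 38 above it cover every stage. In those 38 its median was 7.46 CPM and its mean 8.05 CPM. Its mean of 12.4 CPM below the floor was 167% of that median, where ENSGALG00000035998 stood at 0.0527% of its own. Its 165 to 229 reads were 45.6% to 62.9% of the W reads left in those 4 libraries.

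Below the floor, 90.2% of the 1554 W reads came from 3 genes, which were singled out after their values were seen. ENSGALG00000047434 gave 50.7% and ENSGALG00000043758 gave 36.2%. ENSGALG00000043758 had 172 and 170 reads in the GFP-positive and GFP-negative libraries of pool HH16-A. In pool HH16-C it had 23 reads (1.79 CPM) in the GFP-positive and 197 (10.1 CPM) in the GFP-negative library, against a median of 162 CPM above the floor. ENSGALG00000035780 (W:6346847-6447455) had all of its 52 reads in the GFP-positive library of pool HH16-C and 0 in the other 3, each of which allows up to 3 reads. The GFP-positive HH16-C library had the fewest genes at 10 or more reads of the kept libraries, 11128, against 13674 in the GFP-negative one. ENSGALG00000035998 had 1 to 13 reads in each of the 4 libraries.

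Of the 44 described genes 20 had no read in these libraries, and 31 stood below 1% of their median above the floor. The number of described genes with any read was 7 to 17 in the 4 libraries and 28 to 44 in the other 38. Beside ENSGALG00000047434, 3 genes stood above 10% of their median, all with few reads: ENSGALG00000049069 with 4 reads, ENSGALG00000053841 with 2 and ENSGALG00000046681 with 5 over the 4 libraries together.

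**Figure D4:**
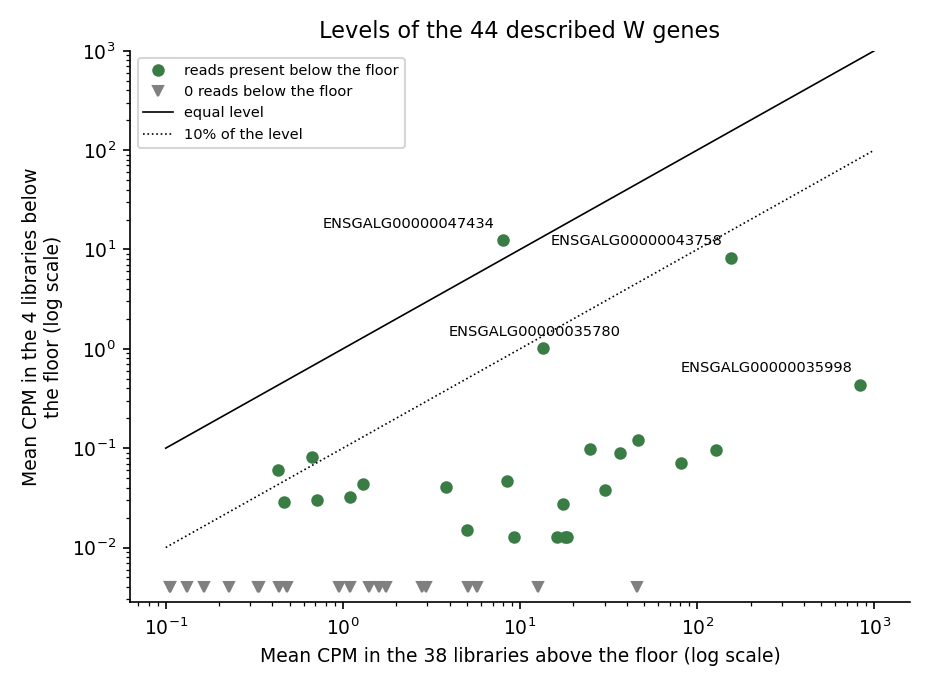
Mean CPM of each described W gene in the 4 libraries below the floor against its mean CPM in the 38 above it (both log scales). Grey triangles at the bottom edge are the 20 genes with no read below the floor, the solid line marks equal levels and the dotted line 10%; ENSGALG00000047434 lies on the solid line's upper side at 12.4 CPM.

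Differences between groups were tested on a pair of scales with edgeR's quasi-likelihood F test across all genes, with Benjamini-Hochberg adjustment and a threshold of 0.05. On the library scale each gene is set against all counted reads, so that it carries the pool's W share with it. On the W scale the 38 libraries above the floor are used and each W gene is set against its library's total of W reads. Of the 44 described genes 41 passed the filter on low counts. Fold changes are GFP-positive over GFP-negative, or later over earlier stages.

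Between GFP-positive and GFP-negative cells, averaged over the 6 stages, no described W gene was called. On the library scale 0 of 41 passed, where 13.1% of all tested genes did. There were 2 at an unadjusted p under 0.05. Errors on this scale were wide, as for ENSGALG00000035998 at -0.33 ± 0.62 (log2 fold change and SE). A count of 0 calls thus does not show equal levels. DESeq2 also called 0, with 3 at an unadjusted p under 0.05, where 2488 of 15737 tested genes were called. The median log2 fold change was -0.22 over the 41 genes, 6 of them positive, and -0.00056 over all tested genes. Without the 4 libraries below the floor the median over the 41 genes was -0.24, 7 of them positive, with 0 called and 4 at an unadjusted p under 0.05. In that fit 2103 of 15705 tested genes were called. With the pool as a block the median was -0.06, with 18 of 41 positive and 0 called, where 2631 of 15737 tested genes were called. On the W scale 0 of 41 passed, against 13.4% of all tested genes, with 2 at an unadjusted p under 0.05. The median on that scale was 0.00037, with 21 of 41 positive. With the pool as a block it was 0.12, with 26 of 41 positive, 0 called and 6 at an unadjusted p under 0.05. In that W-scale fit 2932 of 15705 tested genes were called.

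The composition of W reads is given for the 4 most abundant genes. ENSGALG00000035998 took 51.3 ± 7.34% of W reads in GFP-positive and 52.9 ± 9.65% in GFP-negative libraries (SD, n = 19 each). Its log2 ratio was -0.04 ± 0.07 (SE) with an edgeR adjusted p = 0.778. ENSGALG00000043758 took 10.4 ± 1.49% in GFP-positive and 10.2 ± 1.65% in GFP-negative libraries. ENSGALG00000040086 took 9.14 ± 2.52% in GFP-positive and 8.41 ± 2.87% in GFP-negative libraries, and ENSGALG00000033705 took 5.20 ± 0.859% in GFP-positive and 5.35 ± 0.751% in GFP-negative ones. For each gene the libraries of the populations overlap. These means and this overlap do not compare the libraries of 1 pool, so that they do not show equal composition. Gaps within pools that lay partly in ENSGALG00000035998 are given above.

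Composition was also compared between later and earlier stages. On the W scale 9 of 41 described genes were called between later and earlier stages (18 at an unadjusted p under 0.05), 8 higher and 1 lower, where 27.7% of all tested genes were called, 14.8% higher and 12.9% lower. The members' share of 9 in 41 is near that of all tested genes and is not read as a result about W genes. Genes off W were set against library size in that fit. The median log2 fold change was 0.31, with 31 of 41 positive, and 0.02 over all tested genes. The split moved with the scale. When the W reads were scaled by the median of gene ratios in place of their total, 8 genes were called, 4 higher and 4 lower, with a median of 0.09. In that fit 4350 of 15705 tested genes were called. With the sequencing set as a term 4 were called, all higher, where 3335 of 15705 tested genes were called. With all 50 libraries 3 were called, where 2751 of 16662 tested genes were. These fits take the libraries of a pool as separate samples, although stages were compared between pools, so that their p-values may be too small. With the counts of both libraries of a pool summed, over the 17 pools with both above the floor, 4 of 44 genes were called, all higher. In that fit 3014 of 16308 tested genes were called, against 4352 of 15705 in the main fit.

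ENSGALG00000035998 was the gene that fell, relative to a total of which it is itself the main part. Its share had lowest, median and highest values of 52.3%, 56.2% and 68.4% at HH6, 50.4%, 55.8% and 65.9% at HH8, and 48.01%, 53.7% and 56.9% at HH10. It had 38.8%, 40.9% and 54.8% at HH12, 35.03%, 48.9% and 55.4% at HH14, and 53.3%, 56.7% and 65.8% at HH16. The median share was thus lower at HH12 and HH14 and back at the level of the earlier stages at HH16, with overlap between stages. At HH14 the lowest shares were those of both libraries of pool HH14-C, of set S2. All HH14 libraries of set S1 had higher shares, most of them within the range of HH10. The log2 fold change of later over earlier stages was -0.19 ± 0.07 (SE, edgeR adjusted p = 0.0309). At HH12 the 3 libraries of sequencing set S1 had 42.3% to 54.8%, and those of the other sets 38.8% to 42.2%. Within set S1 the mean share was 52.4% in later and 58.3% in earlier libraries, and within set S2 it was 48.6% in later and 49.8% in earlier ones. The 3 earlier libraries of set S2 are all of HH10. The call was lost with all 50 libraries, with no filter on low counts, with the set as a term and with the libraries of a pool summed (adjusted p up to 0.380). It was also lost in 9 of the 38 fits that each left out 1 library (adjusted p from 0.0111 to 0.0640).

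ENSGALG00000040086 ran the other way as a share of W reads. The shares of a library have a fixed sum, so that a lower share of ENSGALG00000035998 raises those of other genes. Its lowest, median and highest shares of W reads were 4.403%, 7.38% and 9.67% at HH6, 4.39%, 7.97% and 8.73% at HH8, and 5.84%, 7.18% and 9.85% at HH10. They were 8.01%, 12.8% and 14.2% at HH12, 7.78%, 10.3% and 13.4% at HH14, and 5.69%, 6.67% and 9.37% at HH16. HH12 and HH14 are the high stages, and their ranges overlap those of the others. The log2 fold change on the W scale was 0.40 ± 0.10 (SE, edgeR adjusted p = 0.00440). On the library scale it was -0.12 ± 0.53 (SE, edgeR adjusted p = 0.913). The W-scale call held in each fit that left out 1 library, and was lost with all 50 libraries and with the median of gene ratios (adjusted p up to 0.109). With the libraries of a pool summed the W-scale value was 0.39 (adjusted p = 0.0375). At HH12 the libraries of set S1 had 8.01% to 11.3%, and the others 12.6% to 14.2%. Within set S1 the mean was 9.05% in later and 6.76% in earlier libraries, and within set S2 it was 9.35% in later and 7.59% in earlier ones. The 3 earlier libraries of set S2 are all of HH10.

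**Figure D5:**
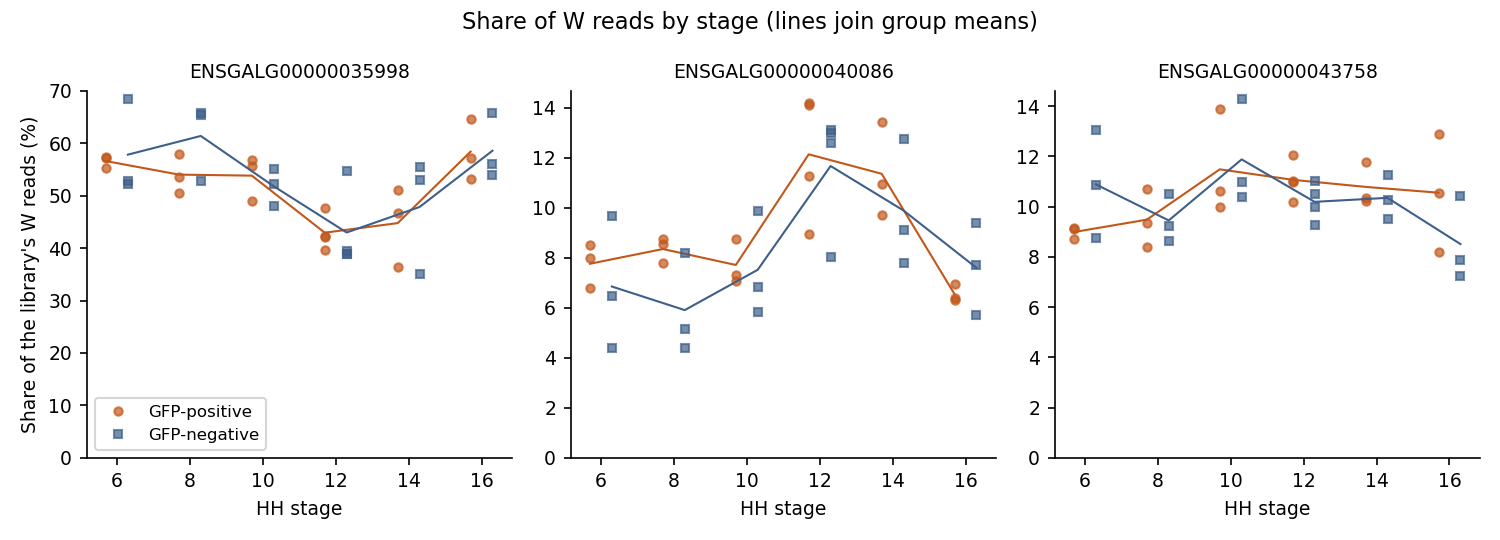
Share of the library's W reads (%) by HH stage for ENSGALG00000035998, ENSGALG00000040086 and ENSGALG00000043758, with GFP-positive libraries as circles left of GFP-negative ones as squares and lines joining the group means. The share of ENSGALG00000035998 is lowest at HH12 and HH14, where that of ENSGALG00000040086 is highest, and the group means of ENSGALG00000043758 lie between 8.51% and 11.9%.

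The largest rises on the W scale were in genes with few reads. ENSGALG00000053841 (W:5920195-5921577, minus strand, 1 exon) had 284 reads in 20 later libraries and 59 in 18 earlier libraries, with 3 later and 10 earlier libraries at 0. Its log2 fold change was 2.75 ± 0.69 (SE, edgeR adjusted p = 0.00300), and the call was lost with the sequencing set as a term (adjusted p = 0.0565) and with the libraries of a pool summed (0.0883). All 3 GFP-positive HH10 libraries were at 0, so that the fitted value depends on edgeR's prior count. Without the GFP-positive HH14-A library the GFP-positive HH14 group is also at 0, and that fit gives no usable test. ENSGALG00000049069 (W:3669295-3672564, plus strand, 1 exon) had 254 reads in later and 53 in earlier libraries, with 1 later and 8 earlier libraries at 0. Its log2 fold change was 2.43 ± 0.60 (adjusted p = 0.00268), and the call held in each alternative and each fit that left out 1 library. Most reads of this gene lie in later libraries, which helped it meet the rule of 10 reads in 3 libraries. That choice favours a rise. Of the 10 most abundant genes, 2 were called. ENSGALG00000043758, which was not, took 10.3 ± 1.38% of W reads in later and 10.4 ± 1.77% in earlier libraries.

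On the library scale the same comparison called 5 of 41 described genes, 3 higher and 2 lower, where 26.3% of all tested genes were called, 14.8% higher and 11.5% lower. Without the 4 libraries below the floor it called 4, of which 3 were higher, where 4345 of 15705 tested genes were called. With all 50 libraries it called 1, where 2972 of 16699 tested genes were called. With the sequencing set as a term it called 2, where 3901 of 15737 tested genes were called. With the libraries of a pool summed, over 19 pools, it called 0 of 44, with 3 at an unadjusted p under 0.05. In that fit 3088 of 16363 tested genes were called. ENSGALG00000047434 was among the 3 called higher in the main fit, at 0.63 ± 0.20 (log2 fold change and SE) with an edgeR adjusted p = 0.0193. Without the 4 libraries below the floor, where its level was high, the value was 0.43 (adjusted p = 0.0811). Its W-scale value was 0.89 ± 0.32 (adjusted p = 0.0363), and this call was lost in 17 of 38 fits that left out 1 library and in 5 of 9 alternatives (adjusted p up to 0.258). ENSGALG00000047434 did not follow the rest of the W reads (r = -0.55), so that its W-scale values also carry the spread of the W total. For the 41 genes the median log2 fold change on the library scale was -0.19, with 13 positive. Without the 4 libraries below the floor it was 0.04, with 23 positive.

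Across all 12 groups the library scale called 0 of 41 described genes with edgeR, 5 of them at an unadjusted p under 0.05, and DESeq2 called 2. Without the 4 libraries below the floor edgeR called 0, with 2 at an unadjusted p under 0.05. In that fit 4624 of 15705 tested genes were called. In the main library-scale fit 28.1% of all tested genes were called. The W scale called 5, where 29.6% of all tested genes were called. They were ENSGALG00000040086 (edgeR adjusted p = 0.00644), ENSGALG00000041500 (0.0195), ENSGALG00000029545 (0.0353), ENSGALG00000040704 (0.0371) and ENSGALG00000047434 (0.0421). In the fits that left out 1 library the count ran from 2 to 7. Each of the 5 calls was lost in at least 2 of 8 alternatives, that of ENSGALG00000047434 in 5 of 8 and in 21 of 38 fits that left out 1 library (adjusted p up to 0.140). On the library scale ENSGALG00000047434, which did not follow the W total, had an edgeR adjusted p = 0.4715 over the 12 groups. No described gene was called for a change of the GFP-positive difference between earlier and later stages on either scale with edgeR, with 0 on either scale at an unadjusted p under 0.05.

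The call of ENSGALG00000041500 (W:2356561-2358300, minus strand, 474 exonic bases) rested on 1 library. The GFP-negative HH10-D library had 402 of its reads, 21.1 CPM and 1.17% of its W reads, and every other kept library had at most 38. The GFP-positive library of the same pool, which the authors' filtered table leaves out, had 4 reads. Without the GFP-negative HH10-D library the adjusted p over the 12 groups was 0.968, against 0.0195 with it.

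Genes off the W chromosome were ranked by how closely they followed the W share. Over the 38 libraries the highest r of log2(CPM + 1) with log2 W share among genes of at least 1 CPM was 0.66, for ENSGALG00000014589 on chromosome 28. The next was ENSGALG00000051419 on chromosome Z (Z:27317307-27383989, minus strand), with r = 0.63. It averaged 0.395 CPM in the 4 libraries below the floor and 12.8 CPM in the 38 above it, or 3.09%, a fall that the other 4 of the 5 highest did not share. Those were at 69.0% to 130% of their level, ENSGALG00000008022 on chromosome 16 and ENSGALG00000049287 on chromosome 13 at the ends, with ENSGALG00000021231 on chromosome 6 between. The 50 highest genes lay on 25 chromosomes, 1 of them on Z. Further down these 50, ENSGALG00000011347 on chromosome 7 stood at 5.32% of its level above the floor. ENSGALG00000048409 on chromosome 25 stood at 23.1% of its own. Both were picked after their values were seen.

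At the other end, 49 of the 50 lowest lay on Z. Among the 585 Z genes of at least 1 CPM the median r was -0.31, and 102 of them (17.4%) were below -0.5. Among the 12576 such genes that were not on Z, W or the mitochondrial genome, 13 were below -0.5, and the median was -0.03. The 30 W genes of at least 1 CPM had a median of 0.68, which includes their own reads. Values across genes describe these libraries and are no replicates.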

How the data were processed

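Polyadenylated RNA of sorted cells was sequenced with a stranded kit, per the labels' protocols. The submitters' processing notes name cutadapt 2.10, HISAT2 2.1.0 and featureCounts 1.6.2. Values in the deposited tables are raw counts, obtained by reverse-stranded counting on Ensembl release 99 gene models of GRCg6a, per the file headers. The recorded command leaves multi-mapping reads at the default. The deposited full table has 50 libraries. The authors' filtered table has 42 of these with the same counts, called kept here. Every column was matched to a sample by its name.

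W share was computed as the summed CPM of all 124 W genes. CPM here is reads over all counted reads, times 1000000, without TMM. Pools and sequencing sets were read from titles and descriptions. The labels do not say whether pools are separate batches of embryos, so the spread behind each p-value may be technical. The closest libraries of a group differed by a chi-square of 7.85 per degree of freedom. Genes were filtered with filterByExpr by group and tested with edgeR 4.0.16 (TMM, robust quasi-likelihood fit, 12 groups), which left 15737 genes on the library scale and 15705 on the W scale, where W genes have the log of total W reads as offset. The fits were also run on simulated counts of independent libraries with less spread than these data. That run does not cover the relation of libraries within a pool. Alternatives included DESeq2 1.42.0 in place of edgeR, other filters and scalings, and each library left out. Permutation tests used SciPy 1.17.1, with a sign flip for pairs. Deviations of the libraries of a pool from their group means correlated at 0.120 to 0.817 over all 19 pairs on genes of at least 1 CPM, and above 0.1 in 16 of 19 pairs on tested genes with TMM values. Sequencing sets group number prefixes of the descriptions, S1 merging 3 of them. Both kept libraries of a pool belong to 1 set so grouped, but those of HH10-A and HH16-C differ in prefix. The main fits have no block, and the pool as a block is an alternative.

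The W genes, lists and tests were chosen with earlier results of these data known. The 10 genes with the most W reads, up to 5 rises and 5 falls of each W-scale comparison, genes above 10% of their median below the floor, and the 5 genes off W with the highest correlation were to be named. The reference gene table, on another assembly, has 25635 rows, 0 of them with an Ensembl identifier, so that 0 identifiers could be named. For that reason at most 2 rises and 2 falls are named for a comparison beyond the other parts of the rule, and cell type markers, a list of Z partners and sequences are not used here. The floor for a count of 0 is 3 reads.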

Additional observations from a re-analysis of the deposited data

Results flagged for a closer look

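Within groups of 4 or 5 libraries, the gap between the highest or lowest library and its neighbour was set against Dixon's 95% critical value for summed W CPM and for the W shares of 18 named genes. Of 40 groups tested 5 were past it, where chance flags about 1 in 20. Gene shares could be tested at HH12 alone, since no other stage has 4 libraries of a group above the floor. The shares of 1 library sum to 100%, so that these tests are not independent. In GFP-negative cells at HH12 the HH12-D library stood apart 3 times. It had 54.8% of W reads on ENSGALG00000035998 where the others had 38.8% to 39.5%, and 8.01% on ENSGALG00000040086. It also had 0.638% on ENSGALG00000040780. The HH12-A library of the same group had 0.0587% on ENSGALG00000049069, where the others had 0.0343% to 0.0364%. With 8522 W reads in that library, this share rests on very few reads. Counting error was not set against this gap. The GFP-positive HH12-C library had 0.873% on ENSGALG00000014184, where the others had 2.44% to 2.65%. The HH12-D and HH12-C libraries are of sequencing set S1, and the other HH12 libraries of sets S4 and S2. The part of the set in these values was not tested.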

How the results depend on the processing

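The counts of described W genes called on the library scale between populations, and the W-share and correlation results, kept their side of the threshold in every alternative that left no library or pool out. Later against earlier stages, the library scale gave 5 calls, 1 with all 50 libraries, 2 with the sequencing set as a term and 0 with both libraries of a pool summed. The W scale gave 9, and 3, 4 and 4 under the same settings. Calls over all tested genes under these settings are given above. Any of 12 groups gave 0 on the library scale, 1 with no filter on low counts and 2 with DESeq2. With no filter 4299 of 21436 tested genes were called. The W scale gave 5, and 3 with all 50 libraries, with no filter, or with the median of gene ratios as scale. Over all tested genes these W-scale settings called 3688 of 16662, 4314 of 21318 and 4640 of 15705, in that order. DESeq2 called 6206 of 15737 tested genes over the 12 groups, against 4420 with edgeR on the library scale. Between populations the W scale gave 0, and 1 with the sequencing set as a term, where 2794 of 15705 tested genes were called. The cause of these changes was not tested. With the pool as a replicate block, the pairing gave 0 calls between populations on both scales, with 6 unadjusted p-values under 0.05 on the W scale.

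Leaving out 1 library at a time, calls between populations ran from 0 to 1 on both scales. Later against earlier stages they ran from 3 to 6 on the library scale and from 6 to 13 on the W scale, and over any of 12 groups from 0 to 3 and from 2 to 7. The W-scale count over 12 groups was 2 or 3 without the GFP-positive library of HH6-A, HH6-C, HH12-A, HH12-B, HH14-A or HH16-D, or the GFP-negative library of HH6-C, HH8-C, HH12-A or HH12-B. The library-scale stage count was 3 without the GFP-positive HH10-A or HH8-C library or the GFP-negative HH6-C library. Leaving out 1 pool of those above the floor, the mean log2 ratio of W share between populations ran from -0.31 to -0.15 (without HH14-B). The later-minus-earlier difference ran from -0.43 to -0.22. The alternatives without the 4 libraries below the floor and with summed pools were chosen after seeing the data. Genes under 1 CPM, 14 of the 44, rest on few reads and set the limit of depth here.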
